A study of Mus musculus with 2 samples.

Results

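The 45 genes described here act in DNA replication or in cell division. They comprise 30 mitosis genes (Mki67, Top2a, Cenpf, Cenpe, Prc1, Nusap1, Aspm, Hmmr, Kif23, Kif11, Kif20a, Bub1, Bub1b, Plk1, Aurka, Aurkb, Ccna2, Ccnb1, Ccnb2, Cdk1, Ube2c, Cdca3, Cdca8, Birc5, Tpx2, Anln, Ckap2, Ckap2l, Spc25 and Nuf2) and 15 S phase genes (Mcm2, Mcm3, Mcm4, Mcm5, Mcm6, Mcm7, Pcna, Rrm1, Rrm2, Tyms, Ccne1, Ccne2, Cdc6, Cdt1 and Gins2), picked by name and not by level from the 22652 genes of the count tables. The list was drawn up with earlier results of these data known. All 45 had at least 1 UMI in both libraries. A UMI (unique molecular identifier) marks 1 captured transcript molecule.

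The data are 2 single-cell libraries made with BD Rhapsody whole-transcriptome chemistry from fetal mouse bone marrow at E18.5 (embryonic day), strain C57BL/6, after magnetic removal of lineage-committed blood cells, 1 library per condition. The first library is labelled WT. The second is labelled Bmx-CreER Wls and is called Wls_iBmx below: these embryos carry floxed Wls, which encodes the Wntless protein that Wnt ligands need to leave a cell, and a tamoxifen-inducible Cre under the promoter of Bmx, a gene of arterial endothelium, with tamoxifen given to the pregnant dam in the preceding days. Whether the WT embryos came from the same litters or received tamoxifen, and how many embryos were pooled, is not stated in the sources used here. With 1 library per condition no difference between conditions can be tested, so intervals below are 95% intervals for counting error only, and what separates the libraries (genotype, litter, tamoxifen, embryo, preparation) cannot be told apart.

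A dividing cell copies its DNA in S phase and separates the copies in mitosis. Transcription of the genes for each step rises in turn: E2F factors switch on licensing, helicase and nucleotide genes before S phase, and later a complex on CHR and CCAAT elements switches on cyclin B, kinetochore and spindle genes. In fetal bone marrow, blood progenitors expand quickly and growth plate chondrocytes divide in columns, then leave the cycle as they become hypertrophic.

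The letters tied to both switches were looked for in the members' own promoters, of which 7 are shown because they belong to the members with the most UMIs whose only RefSeq promoter holds the letters in the stretch printed. They were chosen for the letters, so Birc5 and Rrm2, which lack them there, are not shown. The stretches are the 150 bases before the transcription start in GRCm38.p6 (RefSeq), read 5′ to 3′ on the gene's strand. Capitals mark CCAAT and the CHR letters TTTGAA or TTTAAA in the mitosis genes, and the E2F letters in the S phase genes, on either strand. The E2F letters searched were TTCCCGC, then also TTGGCGC, and further TTCGCGC, and lastly TTGCCGC. The first 4 belong to the mitosis genes Top2a (chr11:99024190-99024339, minus strand), Cdk1 (chr10:69352913-69353062, minus strand), Mki67 (chr7:135716380-135716529, minus strand) and Ube2c (chr2:164769779-164769928, plus strand). The last 3 belong to the S phase genes Mcm6 (chr1:128359706-128359855, minus strand), Mcm5 (chr8:75109359-75109508, plus strand) and Rrm1 (chr7:102441545-102441694, plus strand).
Top2a: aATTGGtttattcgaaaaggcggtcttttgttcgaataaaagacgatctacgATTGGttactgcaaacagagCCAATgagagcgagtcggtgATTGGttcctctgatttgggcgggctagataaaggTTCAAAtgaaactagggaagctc
Cdk1: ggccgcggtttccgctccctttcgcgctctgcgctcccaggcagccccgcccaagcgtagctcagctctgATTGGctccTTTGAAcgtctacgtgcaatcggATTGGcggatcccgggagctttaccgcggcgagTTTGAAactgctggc
Mki67: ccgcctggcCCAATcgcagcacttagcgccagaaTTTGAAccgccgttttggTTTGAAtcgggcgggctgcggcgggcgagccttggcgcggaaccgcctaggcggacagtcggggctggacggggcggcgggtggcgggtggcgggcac
Ube2c: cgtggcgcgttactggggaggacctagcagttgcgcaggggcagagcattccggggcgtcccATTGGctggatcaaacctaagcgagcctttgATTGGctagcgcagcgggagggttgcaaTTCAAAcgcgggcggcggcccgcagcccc
Mcm6: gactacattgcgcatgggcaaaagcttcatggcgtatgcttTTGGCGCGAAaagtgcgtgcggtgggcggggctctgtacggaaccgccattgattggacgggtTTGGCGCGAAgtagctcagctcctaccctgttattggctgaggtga
Mcm5: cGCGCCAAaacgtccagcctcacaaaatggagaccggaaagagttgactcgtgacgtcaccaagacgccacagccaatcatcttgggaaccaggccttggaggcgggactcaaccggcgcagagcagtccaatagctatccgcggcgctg
Rrm1: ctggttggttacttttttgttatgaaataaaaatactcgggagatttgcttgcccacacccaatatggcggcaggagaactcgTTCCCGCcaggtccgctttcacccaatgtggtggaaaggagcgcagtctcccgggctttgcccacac

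In a window from 250 bases before to 50 bases after the start, promoters were given for 26 of the 30 mitosis members and 12 of the 15 S phase members (not for Kif20a, Aurkb, Ccna2, Tpx2, Mcm4, Ccne2 and Gins2). Each gene was counted once, as holding the letters where any of its promoters did. CHR letters stood in 23 mitosis genes (88.5%) and in 4 S phase genes (33.3%), against 30.6% of all 27025 gene symbols. TTTGAA alone stood in 20 mitosis genes (76.9%) and 1 S phase gene (8.33%), against 20.2% of all. E2F letters showed the opposite split, with 4 mitosis genes (15.4%) and 8 S phase genes (66.7%), against 10.9% of all. CCAAT was frequent in both, in 22 mitosis (84.6%) and 8 S phase genes (66.7%), against 41.1% of all. These are matches of letters on both strands, not measured binding, and the second and the third of the E2F words can overlap, as they do in Mcm6.

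The WT library held 22708005 UMIs in 5998 barcodes and the Wls_iBmx library 24704991 UMIs in 6825 barcodes, of which 5736 and 6620 cells passed the study's filter, with medians of 3128 and 3067 UMIs. The libraries shared 49 barcode sequences. Cells of both were clustered together without cell cycle genes and grouped into classes by marker lists. The largest were chondrocyte-like (2407 WT and 3951 Wls_iBmx cells), BMSC-like (bone marrow stromal cells, 1422 and 927), EC-like (endothelial cells, 587 and 465) and HSPC-like (haematopoietic stem and progenitor cells, 338 and 231). The HSPC-like class is 1 cluster named by its granulocyte-monocyte progenitor markers, led by Mpo, Prg2 and Prtn3, and these summed to 2746 CPM in WT and 3553 CPM in Wls_iBmx (CPM, UMIs per 1000000 UMIs of the class), against 1.51 and 0 CPM in EC-like cells. It also carried 8 of 8 stem and multipotent markers at 1945 and 1713 CPM, a list that EC-like cells held at 1692 and 1678 CPM. It further held chondrocyte markers at 1487 and 2272 CPM, 8 of 8 detected, and their part in its values was not tested except by leaving out the subcluster they led. Wls itself stood at 42.2 CPM (84 UMIs) in WT and 23.0 CPM (42 UMIs) in Wls_iBmx EC-like cells, a ratio of 0.544 (0.367 to 0.798). In the EC-like cluster led by the arterial genes Gja5, Sema3g, Gja4 and Sox17 it had 10 and 3 UMIs. UMIs come from the 3′ end of a transcript, so the Wls count may not report the deletion.

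To compare classes of different depth, each cell was thinned to 1000 UMIs, and a cell with at least 2 UMIs of a list was counted as mitosis-called or S-called. Such a call counts molecules and is not a measurement of cycle phase. HSPC-like cells stood far above the stromal, endothelial and cartilage classes on both lists. Of 335 WT HSPC-like cells, 239 were mitosis-called (71.3%, 66.2 to 76.1), and of 229 Wls_iBmx cells 166 were (72.5%, 66.2 to 78.2). Erythroid-like cells were higher still at 89.8% and 88.4%. EC-like cells followed at 32.6% and 32.9%, then BMSC-like cells at 19.6% and 19.8% and chondrocyte-like cells at 19.4% and 18.6%. The intervals of HSPC-like and EC-like cells did not overlap in either library, nor did those of EC-like and BMSC-like cells, while BMSC-like and chondrocyte-like cells did not differ beyond theirs. Osteoclast-like cells were mitosis-called in 30.3% and 32.7%, mural-like cells in 25.4% and 26.1%, and tendon-like cells in 23.2% and 18%. Myeloid-like cells, 50 in WT and 59 in Wls_iBmx, gave 16.7% and 22.4%.

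**Figure D1:**
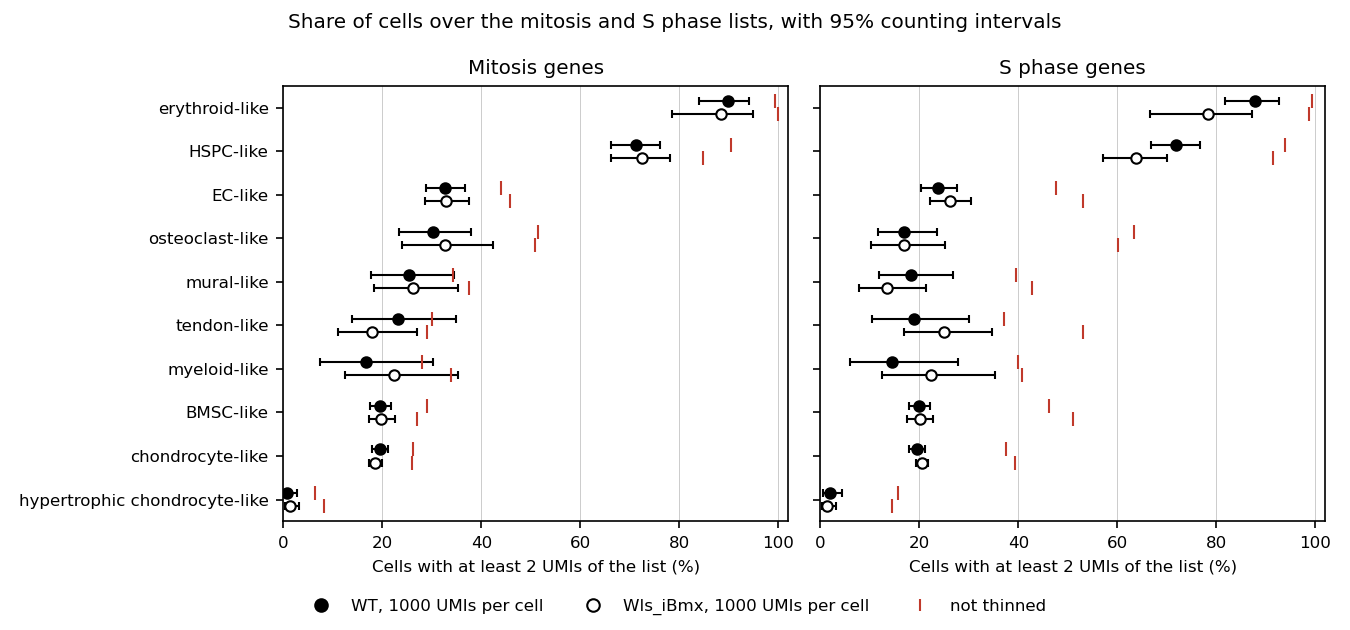
Share of cells (percent, x axis) with at least 2 UMIs of the mitosis list (left) and of the S phase list (right) after thinning to 1000 UMIs, for each class in the WT (filled) and Wls_iBmx (open) libraries. Bars are 95% counting intervals and red ticks the shares without thinning. HSPC-like and erythroid-like cells lie at the right of both panels, and hypertrophic chondrocyte-like cells near 0.

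The S phase list ordered the classes the same way at its top. S-called cells made up 71.9% of WT and 63.8% of Wls_iBmx HSPC-like cells and 87.9% and 78.3% of erythroid-like cells. The other classes were lower and close together, with EC-like cells at 23.9% and 26.1%, BMSC-like cells at 20.03% and 20.1%, chondrocyte-like cells at 19.4% and 20.5%, mural-like cells at 18.4% and 13.5% and osteoclast-like cells at 17.0% and 16.8%. Without thinning, mitosis shares were 90.5% and 84.8% in HSPC-like cells, 44.0% and 45.8% in EC-like cells, 29.0% and 26.97% in BMSC-like cells and 26.2% and 26.0% in chondrocyte-like cells. Unthinned S phase shares were 93.8% and 91.3% in HSPC-like, 47.5% and 53.1% in EC-like, 46.1% and 51.1% in BMSC-like and 37.5% and 39.3% in chondrocyte-like cells.

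Among the classes and clusters formed here, the lowest values came from the hypertrophic chondrocyte-like cluster, led by Col10a1 and Ihh, whose cells are known to have left the cycle. There 2 of 266 WT cells (0.752%) and 4 of 315 Wls_iBmx cells (1.27%) were mitosis-called, and 1.88% and 1.27% S-called. These cells were deep, with a median of 6558 UMIs over both libraries, and unthinned their shares were 6.34% and 8.20% for mitosis and 15.7% and 14.5% for S phase. Free RNA in a capture well can give UMIs to cells that do not make them, and its part in these and the other shares was not tested.

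Many blood progenitors carried both sets of transcripts at once. In WT HSPC-like cells 54.0% were called for both lists, 17.3% for mitosis only, 17.9% for S phase only and 10.7% for neither. In Wls_iBmx 51.5% were called for both. Erythroid-like cells were called for both in 78.3% and 66.7%. In EC-like cells the share was 15.6% and 15.3%, in BMSC-like cells 10.5% and 8.41%, and in chondrocyte-like cells 9.91% and 9.52%. Before thinning, the HSPC-like cells called for neither list (36 and 35) were shallower than the mitosis-called cells, with medians of 3255 and 3169 UMIs against 7115 and 8014.

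List UMIs were spread over most HSPC-like cells and packed into few cells of the skeletal classes. The tenth of cells with the most mitosis UMIs held 30.7% of them in WT and 30.2% in Wls_iBmx HSPC-like cells, against 79.5% and 80.2% in chondrocyte-like, 79.5% and 79.0% in BMSC-like and 59.6% and 60.3% in EC-like cells. S phase UMIs were less packed, at 22.6% and 22.8% in HSPC-like cells and 53.6% and 51.8% in chondrocyte-like cells. At least 20 mitosis UMIs were found in 54.4% and 60.2% of HSPC-like cells and in 12.3% and 13.3% of chondrocyte-like cells, while 5.03% and 9.96% of HSPC-like cells and 58.8% and 58.1% of chondrocyte-like cells had none. The median HSPC-like cell held 23 mitosis UMIs and 21 S phase UMIs in WT, and 28 and 20 in Wls_iBmx. All counts of this paragraph are unthinned, so they follow depth as well. HSPC-like cells had a median of 6487 UMIs over both libraries. The largest chondrocyte-like cluster had 2246 and the hypertrophic one 6558. The part of depth in these values was not tested.

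By the summed level, the mitosis list stood at 5475 CPM in WT and 5558 CPM in Wls_iBmx HSPC-like cells, 5870 and 5447 CPM in erythroid-like, 2904 and 3251 CPM in EC-like, 2769 and 2714 CPM in BMSC-like, 2307 and 2774 CPM in chondrocyte-like and 224 and 178 CPM in hypertrophic chondrocyte-like cells. The S phase list stood at 3269 and 3034 CPM in HSPC-like, 4026 and 3669 CPM in erythroid-like, 1036 and 1111 CPM in EC-like, 939 and 945 CPM in BMSC-like, 808 and 870 CPM in chondrocyte-like and 145 and 124 CPM in hypertrophic chondrocyte-like cells. S phase UMIs per 100 mitosis UMIs numbered 59.7 and 54.6 in HSPC-like and 68.6 and 67.3 in erythroid-like cells, against 35.7 and 34.2 in EC-like, 33.9 and 34.8 in BMSC-like and 35.0 and 31.4 in chondrocyte-like cells. Hypertrophic chondrocyte-like cells, low on both lists, had 64.5 and 69.4.

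**Figure D2:**
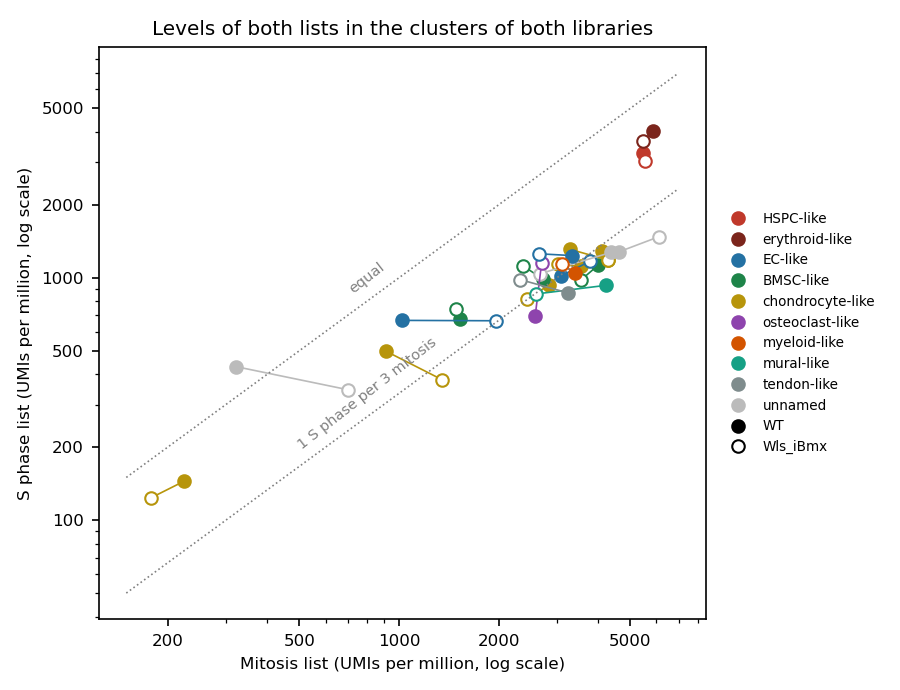
Summed level of the S phase list against that of the mitosis list (CPM, both axes log) in the 21 clusters, with a line joining the WT (filled) and Wls_iBmx (open) value of each. HSPC-like and erythroid-like clusters stand at the top right and the hypertrophic chondrocyte-like cluster at the bottom left.

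Taken gene by gene, Top2a, the topoisomerase that untangles sister chromosomes, had the most UMIs of the mitosis list, 9443 in WT and 9954 in Wls_iBmx, 13.5% of the list. It was followed by Cdk1, the kinase that starts mitosis (5200 and 5740), Mki67, which coats mitotic chromosomes (5121 and 5256), Birc5, survivin of the chromosomal passenger complex (4994 and 5283), Ube2c, the ubiquitin-conjugating enzyme of the anaphase-promoting complex (4678 and 4975), and Ccna2, cyclin A (4275 and 4703). These 6 genes gave 48.6% of the 143274 mitosis UMIs. Fewest came from the aurora kinase gene Aurka (650 and 542), the spindle checkpoint gene Bub1b (471 and 518) and Kif20a, a kinesin of cytokinesis (87 and 73). Among the S phase genes the helicase subunit gene Mcm6 led with 4248 and 3928 UMIs (14.3%), then Rrm2 and Rrm1, the subunits of ribonucleotide reductase, with 3529 and 3647 and with 3406 and 2772, and Mcm4 and Mcm5 with 3509 and 3208 and with 3178 and 3027. These 5 gave 60.2% of 57237 S phase UMIs, while Ccne2, a cyclin E gene, had 472 and 473 and Gins2, which joins the helicase, had 184 and 196. UMIs are molecules at the 3′ end and are not divided by transcript length, but capture still differs by gene, so the order of genes is one of counts.

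**Figure D3:**
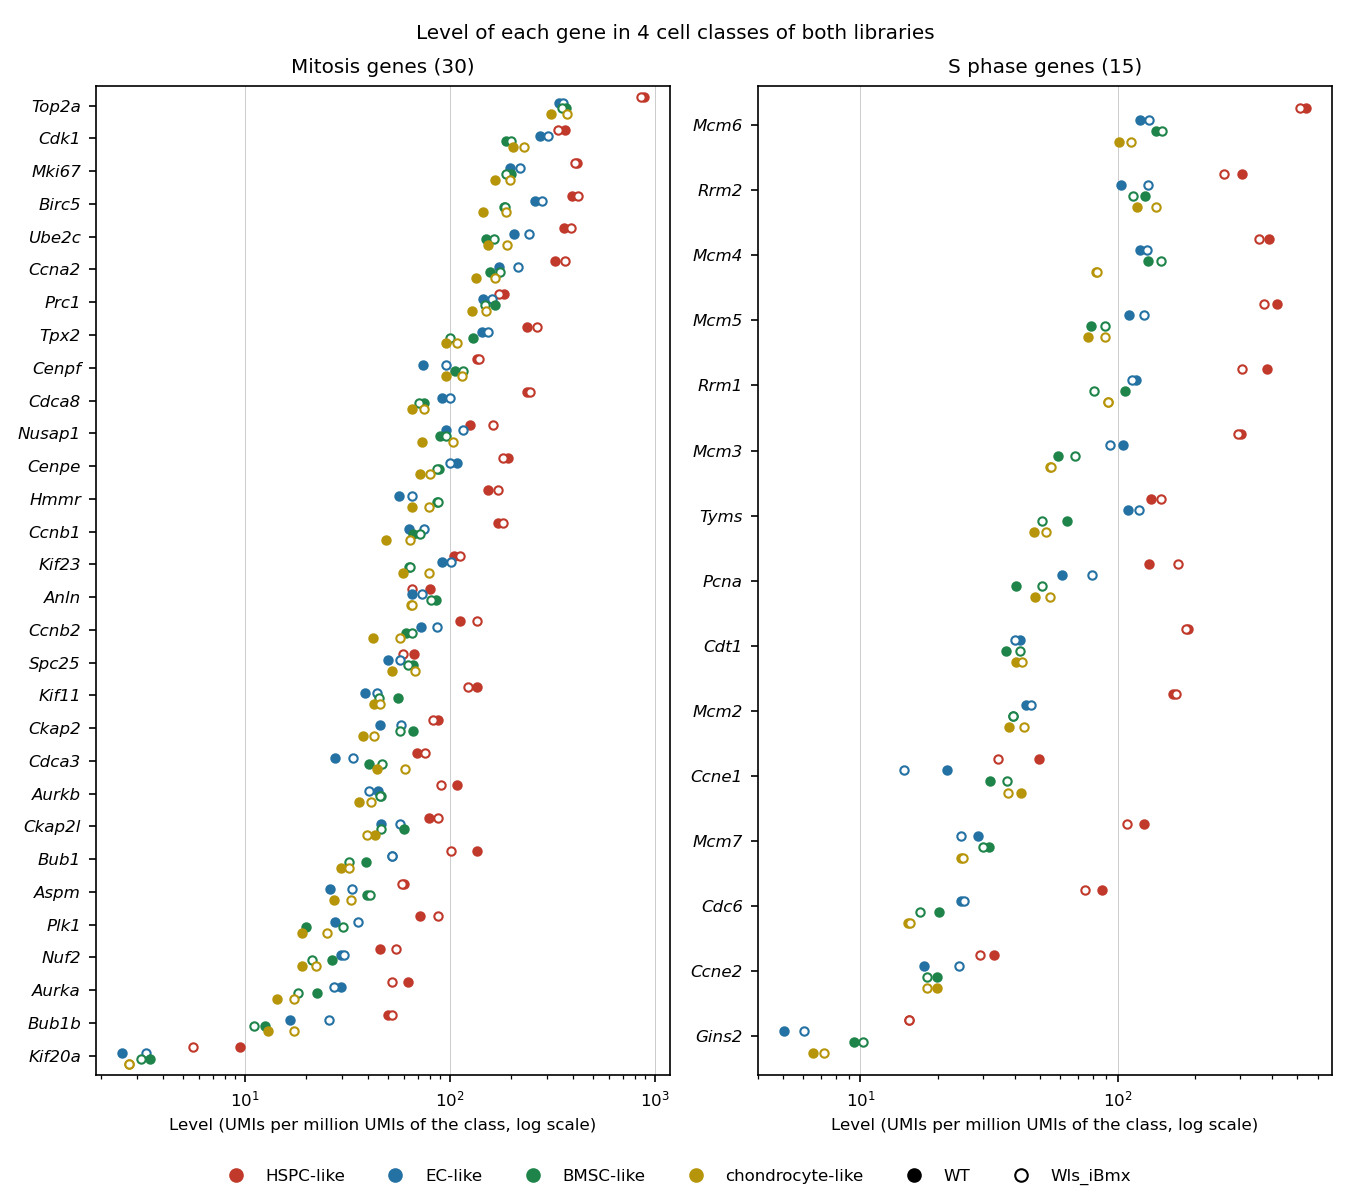
Level of each of the 45 genes (CPM, log axis) in HSPC-, EC-, BMSC- and chondrocyte-like cells, WT filled and Wls_iBmx open. HSPC-like points lie to the right for nearly all genes, Anln, Spc25 and Ccne1 being among those where they lie close to the other classes.

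As a sum, the initiators of mitosis took up a similar part of the list in HSPC-like and chondrocyte-like cells. Cdk1 with its cyclins Ccna2, Ccnb1 and Ccnb2 summed to 977 CPM in WT and 1022 CPM in Wls_iBmx HSPC-like cells, against 587 and 679 CPM in EC-like, 473 and 511 CPM in BMSC-like and 429 and 517 CPM in chondrocyte-like cells. They made up 17.9% and 18.4% of the mitosis UMIs in HSPC-like cells and 18.6% and 18.6% in chondrocyte-like cells, and in the other classes summed by role between 17.1% (BMSC-like, WT) and 24.7% (hypertrophic chondrocyte-like, Wls_iBmx). Cdk1 alone read 367 and 336 CPM in HSPC-like and 203 and 229 CPM in chondrocyte-like cells. Ccna2 read 326 and 367 CPM in HSPC-like and 135 and 167 CPM in chondrocyte-like cells. Single genes of the sum differed. HSPC-like over chondrocyte-like ratios were 1.81 and 1.47 for Cdk1, 2.42 and 2.20 for Ccna2, 2.66 and 2.38 for Ccnb2, and 3.51 and 2.86 for Ccnb1.

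The kinases that police the spindle were among the mitosis genes most tilted toward blood progenitors. Bub1 and Bub1b, the checkpoint kinases, summed to 186 and 154 CPM in HSPC-like cells and to 42.3 and 49.7 CPM in chondrocyte-like cells, 4.40 and 3.10 times as high. Plk1, Aurka and Aurkb, the polo and aurora kinases, summed to 243 and 231 CPM against 69.5 and 84.1 CPM, 3.49 and 2.75 times as high. Birc5 and Cdca8, the partners of Aurkb in the passenger complex, reached 632 and 668 CPM against 211 and 264 CPM, 2.99 and 2.54 times as high. Top2a and Mki67 together stood at 1305 and 1270 CPM against 479 and 572 CPM, with Top2a at 886 and 859 CPM and Mki67 at 419 and 411 CPM in HSPC-like cells.

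The summed level of the late mitosis genes tilted least among the mitosis roles. Prc1, Kif23, Kif20a and Anln, which build the central spindle and the cleavage furrow, summed to 379 and 356 CPM in HSPC-like and 255 and 299 CPM in chondrocyte-like cells, 1.49 and 1.19 times as high. Kif20a, with few UMIs, read 3.51 (1.83 to 6.68) and 2.05 (0.867 to 4.35). These wide intervals overlap those of Kif23 at 1.78 (1.51 to 2.08) and 1.41 (1.195 to 1.65). Together the genes of this group made up 6.93% and 6.41% of the mitosis UMIs in HSPC-like and 5.27% and 5.12% in erythroid-like cells, against 11.1% and 10.8% in chondrocyte-like and 11.6% and 10.9% in BMSC-like cells. The kinetochore genes Cenpe, Cenpf, Spc25 and Nuf2 were 1.84 and 1.53 times as high in HSPC-like as in chondrocyte-like cells. In WT most mitosis members were highest in erythroid-like (16) or HSPC-like cells (8), and the exceptions were Cenpf, Prc1 and Anln in mural-like cells (Prc1 at 271 and Anln at 118 CPM), Nusap1 and Kif23 in myeloid-like cells (139 and 124 CPM) and Ckap2 in tendon-like cells (124 CPM). In Wls_iBmx 16 were highest in HSPC-like and 11 in erythroid-like cells, with Spc25 highest in chondrocyte-like (68.1 CPM), Anln in mural-like (88.9 CPM) and Kif20a in myeloid-like cells (5.77 CPM). Several of these classes hold few cells, and neighbouring classes often did not differ beyond their intervals.

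As a list, S phase genes tilted more strongly. The helicase genes Mcm2 to Mcm7 with Gins2 summed to 1956 and 1827 CPM in HSPC-like cells against 384 and 416 CPM in chondrocyte-like cells, 5.10 and 4.39 times as high. Cdc6 and Cdt1, which load the helicase onto origins, summed to 275 and 260 CPM against 55.5 and 58.1 CPM. Rrm1, Rrm2 and Tyms, which supply deoxynucleotides, reached 822 and 710 CPM against 259 and 286 CPM. Pcna, the sliding clamp of the polymerases, read 133 and 172 CPM against 47.8 and 54.5 CPM. Within these sums Rrm2 was only 2.56 and 1.83 times and Gins2 2.36 and 2.15 times as high in HSPC-like cells. Those values lie near or below the medians of the mitosis members, 2.46 and 2.20. The cyclin E genes Ccne1 and Ccne2 were an exception at 82.4 and 63.3 CPM against 62.1 and 55.8 CPM, and in EC-like cells they read 39.2 and 38.9 CPM, below the chondrocyte-like level. In erythroid-like cells the same pair reached 186 and 125 CPM. All 15 S phase members were highest in erythroid-like (13 in WT, 11 in Wls_iBmx) or HSPC-like cells, with Mcm3 and Tyms the HSPC-like ones in WT.

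The gene-by-gene tilt came out alike in both libraries. Over mitosis members the median ratio of HSPC-like over chondrocyte-like level was 2.46 in WT and 2.20 in Wls_iBmx, and over S phase members 4.34 and 3.90. In WT the mitosis ratios ran from 1.24 (Anln) to 4.64 (Bub1), and in Wls_iBmx from 0.865 (Spc25, 0.693 to 1.07) to 3.46 (Plk1). S phase ratios ran from 1.17 (Ccne1, 0.932 to 1.45) to 5.68 (Cdc6) in WT and from 0.909 (Ccne1) to 5.32 (Mcm3) in Wls_iBmx. Across the 45 genes the log2 ratios of the libraries had r = 0.958, a description over genes that share cells, libraries and gene-specific capture. For EC-like over chondrocyte-like cells r was 0.891, with Ccne1 lowest (0.511 and 0.394) and Tyms highest (2.31 and 2.30) in both.

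**Figure D4:**
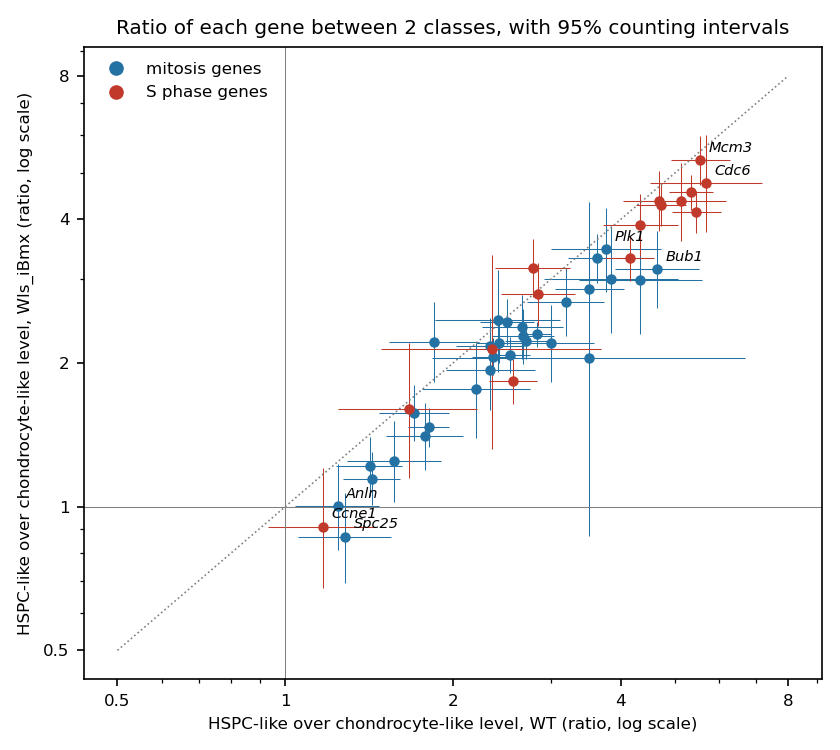
Ratio of HSPC-like over chondrocyte-like level for each of the 45 genes, in WT (x axis) and Wls_iBmx (y axis), both log axes. S phase genes lie mostly above the mitosis genes along the diagonal, with Ccne1 at the low end and Cdc6 and Mcm3 at the high end.

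Over the 21 clusters with both libraries pooled, members followed their own list closely, with a median r of 0.957 for mitosis and 0.937 for S phase genes between a gene's level and the sum of the others in its list. Of the 30 mitosis members 29 were closer to their own list than to the other, the exception being Kif20a, the member with the fewest UMIs. Of the 15 S phase members 11 were. Rrm2, Tyms, Ccne1 and Ccne2 were closer to the mitosis list, Rrm2 with r = 0.938 to the mitosis and 0.914 to the S phase list, and Ccne1 had the lowest r to its own list at 0.629. These correlations are descriptions over clusters that share libraries and depth.

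Within a class, called cells differed from the rest by a large factor in UMIs that the call had not used. In cells with at least 2000 UMIs, the UMIs left over after thinning gave the mitosis list at 11196 CPM in WT and 12664 CPM in Wls_iBmx in mitosis-called chondrocyte-like cells, against 112 and 111 CPM in cells called for neither list. The same levels were 10749 and 10764 against 142 and 127 CPM in BMSC-like, 6765 and 7781 against 320 and 320 CPM in EC-like, and 6577 and 6451 against 671 and 978 CPM in HSPC-like cells. S-only chondrocyte-like cells lay between, with the mitosis list at 617 and 493 CPM. HSPC-like cells had the lowest called and the highest uncalled level of the 4 classes. S-only cells carried the S phase list at 4236 and 3590 CPM in HSPC-like, 1756 and 1771 CPM in chondrocyte-like, 1675 and 1597 CPM in BMSC-like and 1738 and 1862 CPM in EC-like cells.

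Individual genes marked the called cells to different degrees. Among thinned mitosis-called chondrocyte-like cells 70.0% in WT and 73.8% in Wls_iBmx had a Top2a UMI and 50.8% and 54.2% a Mki67 UMI, against 1.02% and 0.372% for Top2a in cells called for neither. In HSPC-like mitosis-called cells Top2a was found in 57.7% and 60.2% and Mki67 in 38.5% and 36.8%. Since both genes are in the list that made the call, these shares only describe its makeup. In WT chondrocyte-like cells Rrm2 was found in 39.2% of mitosis-called and 8.93% of S-only cells, and Mcm6 in 14.9% and 39.7%. In WT HSPC-like cells Mcm6 was found in 37.7% of mitosis-called and 63.3% of S-only cells. Rrm2 and Mcm6 are in the S phase list, so their shares in S-only cells are set in part by the call.

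Genes outside both lists were also higher in called cells. Of 28 further mitosis genes (such as Cdc20, Cenpa and Ndc80), those with enough UMIs were higher in mitosis-called than in uncalled cells, beyond the counting interval, in 28 of 28 cases in chondrocyte-like cells of both libraries, 28 of 28 and 25 of 25 in BMSC-like, 21 of 21 and 20 of 20 in EC-like and 25 of 27 and 23 of 27 in HSPC-like cells. The median ratio was 84.7 and 84.6 in chondrocyte-like but 9.19 and 6.24 in HSPC-like cells. The share over all genes was not computed for these comparisons of called with uncalled cells. Of 33 cycle regulators, 15 of 29 and 17 of 31 with enough UMIs were higher in mitosis-called chondrocyte-like cells. Another 8 and 10 were lower, and the median ratio was 1.32 and 1.33. Of 28 further S phase genes, all 20 and all 23 tested in chondrocyte-like cells were higher in S-only than in uncalled cells, with medians of 5.78 and 5.52. In mitosis-called chondrocyte-like cells 24 of 25 and 25 of 25 were higher too, with medians of 8.26 and 6.16. These genes therefore did not set S-only cells apart from mitosis-called cells.

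Some brakes of the cycle went opposite ways between called and uncalled cells. Only some of the inhibitors, D cyclins and classes are given here, so the values do not describe the brakes as a set. Cdkn2c, an inhibitor of the cyclin D kinases, was 34.0 times (22.7 to 53.2) as high in WT and 30.1 times as high in Wls_iBmx mitosis-called chondrocyte-like cells as in uncalled ones, and 27.9 (15.8 to 53.7) and 31.4 times in BMSC-like cells. In EC-like cells it read 41.2 and 45.4 CPM in mitosis-called cells and had no UMI in uncalled cells, which allows up to 2.93 and 3.24 CPM. In HSPC-like cells it had 2 and 6 UMIs in all, too few for a ratio. Its relative Cdkn2d was 8.94 and 8.97 times as high in chondrocyte-like and 7.83 and 6.55 times in BMSC-like cells. Cdkn1c, the p57 inhibitor, went the other way, at 0.674 and 0.759 of the uncalled level in chondrocyte-like, 0.476 and 0.492 in EC-like and 0.348 and 0.173 in HSPC-like cells. Its level was highest where mitosis genes were lowest among these, at 6472 and 6077 CPM in hypertrophic against 3402 and 3071 CPM in all chondrocyte-like cells. Among the D cyclins, which carry growth signals into the cycle, Ccnd1 was higher in S-only than in uncalled cells (1.59 and 1.90 times in chondrocyte-like, 1.53 and 2.08 in BMSC-like, 1.39 and 1.47 in EC-like), while Ccnd2 was lower in mitosis-called cells (0.691 and 0.621 in chondrocyte-like, 0.490 and 0.553 in BMSC-like, 0.661 and 0.569 in EC-like).

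Inside the HSPC-like class the mitosis share ranged widely by subcluster. The subcluster led by Mecom, Procr and Hlf, genes of stem cells, was mitosis-called in 32.4% (17.4 to 50.5) of WT and 32.1% (15.9 to 52.4) of Wls_iBmx cells but S-called in 58.8% and 46.4%. The Irf8-led subcluster reached 95.7% and 95.8%, the basophil subcluster led by Prss34 and Mcpt8 94.3% and 100%, and the one led by Elane and Prg2 88.9% and 86.7%. The megakaryocyte subcluster led by Pf4 had 81.2% and 91.3% and the Klf1-led one 78.3% and 91.2%. The mast subcluster led by Cma1 and Mcpt4 was low at 40% and 46.7%, and the Flt3-led one in between at 60% and 75%. Subclusters hold 16 to 71 cells per library, so the intervals are wide. The stem and mast subclusters lay apart from the Irf8-led and basophil subclusters in both libraries. A subcluster led by Col2a1 and other cartilage genes (20 and 17 cells) gave 65% and 41.2%.

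Between the libraries, the mitosis share differed little in any large class. The ratio of Wls_iBmx over WT share was 1.02 (0.915 to 1.13) in HSPC-like, 1.009 (0.853 to 1.19) in BMSC-like, 1.008 (0.845 to 1.202) in EC-like and 0.955 (0.859 to 1.06) in chondrocyte-like cells, so that the intervals leave room for differences of up to about these bounds. Over all cells the mitosis share was 26.3% in WT and 22.5% in Wls_iBmx, a ratio of 0.856 (0.803 to 0.911), below the ratios of 0.955 to 1.02 in these 4 classes. Class sizes differed between the libraries, with 338 against 231 HSPC-like and 2407 against 3951 chondrocyte-like cells, which the depletion and dissociation can set. The S phase ratio was 1.004 (0.850 to 1.19) in BMSC-like, 1.06 (0.952 to 1.17) in chondrocyte-like and 1.09 (0.884 to 1.35) in EC-like cells.

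The S phase genes of the HSPC-like cells were lower in Wls_iBmx by a small amount. The share ratio was 0.886 (0.787 to 0.998), from 241 of 335 to 146 of 229 cells, and the level ratio 0.928 (0.895 to 0.962). By gene, 11 of 15 S phase members were lower, beside 4162 of the 8032 genes with at least 50 UMIs in the class. The S phase members had a median ratio of 0.915, against 0.991 over all genes of the class and 1.04 over the mitosis members. Ccne1 was lowest, at 49.4 CPM (109 UMIs) in WT and 34.1 CPM (55 UMIs) in Wls_iBmx, a ratio of 0.691 (0.491 to 0.965). Pcna went the other way, at 133 and 172 CPM, 1.30 (1.10 to 1.53). Among the mitosis genes Bub1 was lowest, 136 and 101.8 CPM, 0.747 (0.614 to 0.906), and Nusap1, which bundles spindle microtubules, highest, 125 and 163 CPM, 1.31 (1.10 to 1.55). Erythroid-like cells had an S phase share ratio of 0.890 (0.776 to 1.02) and a level ratio of 0.911 (0.869 to 0.955). Without the cartilage-led subcluster the HSPC-like S phase share ratio was 0.911 (0.811 to 1.02), an interval that covers 1, and the level ratio 0.938 (0.904 to 0.974). The markers of granulocyte-monocyte progenitors (2746 and 3553 CPM, 6 of 6 detected) and of mast cells and basophils (722 and 1364 CPM, 7 of 7 detected) also differed within this class, and their part was not tested.

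In the 4 largest named classes at most 1 member passed a fold of 1.5 in either direction. In HSPC-like cells 0 of 44 did, beside 7.67% of the 8032 genes with at least 50 UMIs there. In chondrocyte-like cells 0 of 45 did, beside 8.45% of 11165 genes. In BMSC-like cells it was 1 of 44, beside 8.90% of 10140 genes, namely Plk1, at 20.01 CPM (104 UMIs) in WT and 30.02 CPM (106 UMIs) in Wls_iBmx, 1.501 (1.13 to 1.99). In EC-like cells it was 1 of 43, beside 7.25% of 7984 genes, namely Bub1b, at 16.6 CPM (33 UMIs) and 25.7 CPM (47 UMIs), 1.55 (0.973 to 2.50). At the other end in BMSC-like cells stood Rrm1, 107 and 81.0 CPM, 0.755 (0.652 to 0.872), and Tpx2, the activator of aurora A, 130 and 100 CPM, 0.773 (0.678 to 0.881), while Pcna was again high, 40.2 and 51.0 CPM, 1.27 (1.03 to 1.56). In EC-like cells Ccne1 (21.6 and 14.8 CPM, 0.684, 0.406 to 1.13) and Mcm7 (28.7 and 24.6 CPM, 0.860, 0.568 to 1.29) were lowest and Ccne2 (17.6 and 24.1 CPM, 1.37, 0.858 to 2.20) followed Bub1b at the top.

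**Figure D5:**
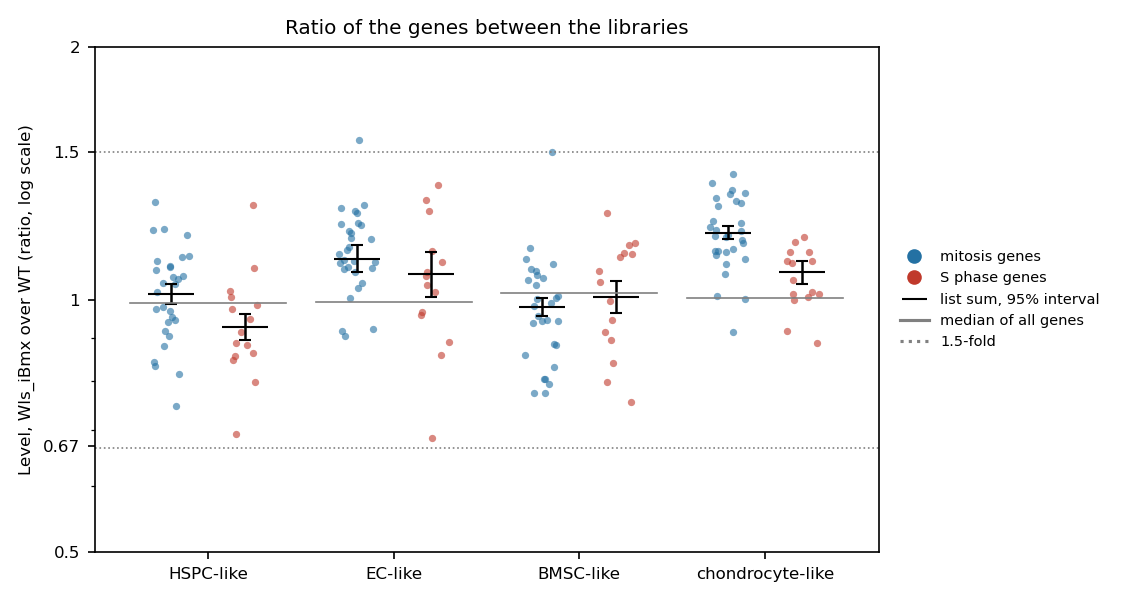
Ratio of Wls_iBmx over WT level (log axis) of each member in the HSPC-, EC-, BMSC- and chondrocyte-like classes, with the ratio of the summed list and its 95% counting interval, the median of all genes of the class and lines at 1.5-fold. Mitosis genes of chondrocyte-like cells lie mostly above 1 and S phase genes of HSPC-like cells mostly below it.

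In chondrocyte-like cells the mitosis list was higher in level but not in share in Wls_iBmx. Of 30 members 29 were higher in Wls_iBmx, beside 5689 of the 11165 genes with at least 50 UMIs in the class. Members share cells, so such counts are not separate observations. The median ratio was 1.19 against 1.004 over all genes, and the list ratio was 1.202 (1.18 to 1.22). Nusap1 had the highest ratio, with 73.4 and 104 CPM, 1.41 (1.28 to 1.56), then Cdca3, which triggers the breakdown of Wee1, with 44.1 and 60.7 CPM, 1.38 (1.21 to 1.56). Ckap2l, a spindle protein gene, was the member below 1, 43.0 and 39.4 CPM, 0.916 (0.798 to 1.05), and Ccne1 was the lowest of the S phase genes, 42.3 and 37.6 CPM, 0.888 (0.772 to 1.02). By cluster the ratio did not have one direction, with 1.05, 1.30 and 1.47 in 3 clusters and 0.859, 0.848 and 0.795 in the other 3. With the clusters weighted as in WT the ratio was 0.999, and the S phase ratio was 0.909 in place of 1.08. The cluster that grew most in cells, from 542 to 1260, was led by Tnn, Itgbl1 and Car9 and had one of the higher mitosis levels, 4095 and 4282 CPM. The part of this cluster in the list ratio was not tested.

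EC-like cells gave a mitosis level ratio of 1.12 (1.08 to 1.16), with 1.12 also at the WT cluster makeup. Of 29 mitosis members 26 were above 1, beside 3887 of the 7984 genes with at least 50 UMIs there. The arterial cluster (77 and 69 cells), where Bmx-CreER acts, was mitosis-called in 18.1% of WT cells (13 cells) and 17.6% of Wls_iBmx cells (12 cells). Its mitosis level was 1021 and 1970 CPM, a ratio of 1.93 (1.66 to 2.25), which rests on those few cells, and its S phase level was 667 and 665 CPM. Bmx was read at 117 CPM (29 UMIs) and 248 CPM (71 UMIs) in it. The cluster led by Cd36 and Fabp4 had a mitosis ratio of 1.22 and that led by Stab1 and Flt4 0.797.

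Smaller classes, chosen after their values were seen, had larger ratios. In osteoclast-like cells (169 and 108) the S phase level was 697 and 1152 CPM, 1.65 (1.51 to 1.81), beside 10.2% of all genes past 1.5-fold there, while the S phase share was 17.0% and 16.8% and the mitosis level 2581 and 2698 CPM. Of 38 members with enough UMIs 11 passed 1.5-fold, among them 7 of 11 S phase members, each higher in Wls_iBmx, and 8 of 13 further S phase genes passed it, also each higher. Rrm2 read 72.4 CPM (94 UMIs) and 189 CPM (161 UMIs), 2.61 (2.01 to 3.40), and Mcm6 108 and 208 CPM, 1.93 (1.54 to 2.43), but Tyms had 0.982 and Cdt1 0.866. Without thinning, cells with at least 20 S phase UMIs were 9 (5.33%) in WT and 20 (18.52%) in Wls_iBmx. In mural-like cells (114 and 112) the mitosis level was 4224 and 2592 CPM, 0.614 (0.567 to 0.664), beside 15.2% of all genes past 1.5-fold, at shares of 25.4% and 26.1%. The 11 cells with the most mitosis UMIs held 65.85% of them in WT and 63.58% in Wls_iBmx, a spread that the interval does not cover. Of 24 members 11 passed 1.5-fold, all of them mitosis members lower in Wls_iBmx, out of 19 mitosis members with enough UMIs. Top2a read 457 CPM (167 UMIs) and 231 CPM (96 UMIs), 0.504 (0.388 to 0.652), while Ccnb2 had 1.06 and Cdca8 0.975. The 8 chondrocyte markers in the mural-like cells stood at 4353 and 1905 CPM, and their part in the difference was not tested. In tendon-like cells (70 and 100) 5 of 12 members passed 1.5-fold, all lower in Wls_iBmx, beside 21.0% of all genes. Of the clusters that no marker list named, that led by Stc1 and Bpifb1 was mitosis-called in 25.3% and 15.4%, at 4368 and 2671 CPM, 0.612, and that led by Hbegf and Clic5 in 2.16% and 3.55%, at 322 and 704 CPM.

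Of the further genes of the pathway in HSPC-like cells, 2 of 27 S phase genes and 0 of 28 mitosis genes were past 1.5-fold between the libraries, a share near or below the 7.67% of all genes there. Slbp, which encodes the stem-loop binding protein of histone mRNA, gave the lowest ratio of them in HSPC-like cells. It read 75.2 and 42.8 CPM in HSPC-like cells, 0.570 (0.424 to 0.759), and its ratio was 0.650 (0.540 to 0.782) in chondrocyte-like 0.637 (0.415 to 0.964) in EC-like and 0.812 (0.610 to 1.08) in BMSC-like cells. Over all cells it read 37.6 and 22.8 CPM, 0.606 (0.543 to 0.676). Orc1, a subunit of the origin recognition complex, read 32.6 and 19.2 CPM in HSPC-like cells, 0.590 (0.374 to 0.911), with 0.598 (0.368 to 0.968) in chondrocyte-like cells. Both were past 1.5-fold in HSPC-like cells.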

How the data were processed

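The authors deposited, per library, the UMI count of each gene in each cell barcode as unnormalized whole numbers. Per the labels, reads were processed with bcl2fastq 2.19.1.403, UMI-tools 1.0.1, STAR 2.7.1a and featureCounts 1.6.4 of Subread on mm10. Strand handling and the gene annotation are not given in the sources used here, so reads of overlapping genes may be shared between them.

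The study's cell filter was applied (over 200 and under 5000 genes, mitochondrial UMIs under 30%). Doublets were kept, as the study names no removal; Scrublet marked 38 WT and 1 Wls_iBmx cells, too few to have worked. Both libraries were clustered together on log-normalized counts (scale 10000, variable genes with mean 0.0125 to 3 and dispersion of at least 0.5, without cell cycle genes, 11 principal components, 20 neighbours, Leiden 0.8). The study's own list of cell cycle genes was not used here, and the members, related and regulator lists and histone genes stood in for it. Among marker lists with a mean z score of at least 1 in a cluster, that with the most markers raised at least 2-fold set its class, and the best scoring list of that class its name. A cluster stayed unnamed where another class had more markers among its top 10 genes, or where it carried both muscle and Schwann markers. This scoring was set after the clusters' genes were seen. Cluster 3, BMSC-like, scored 1.39 for the stromal list (6 of 8 markers raised) and 1.48 for the tendon list (4 of 6), and cluster 4, chondrocyte-like, scored 1.27 with 0 markers raised. The names were rebuilt here, and shares may differ from the study's for that reason. A class joins its clusters and includes those that cycle.

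Cells were thinned to 1000 UMIs in 1 seeded draw, which leaves out 119 WT and 161 Wls_iBmx cells. Levels are UMIs per 1000000 UMIs of a class. Intervals are exact Poisson (levels), Clopper-Pearson (shares), conditional binomial (level ratios) and Katz (share ratios) at 95%, and cover counting error only. Those of levels and level ratios treat each UMI as a separate draw. They leave out the spread between cells, which is large where few cells hold most UMIs of a list. Counts of members between libraries use genes with at least 50 UMIs in the class over both libraries. The interval and thinning steps were tested on simulated data.

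The members and all gene lists were chosen with earlier results of these data known. Genes named with levels are the 6 mitosis and 5 S phase members with the most UMIs, the 3 and 2 with the fewest, the 2 highest and 2 lowest ratios between libraries in 4 classes, and members highest in another class than most of their list; others are named by their role or as further lowest or highest values, after these were seen. The sums by role, the osteoclast-like, mural-like, tendon-like and unnamed cluster values, the shares by the labels of the study and the alternatives without the cartilage-led subcluster and with the clusters weighted as in WT were chosen after seeing the data. The other alternatives changed the UMI minimum, thinning, cell filter, doublets, clustering, class total, scaling (TMM of edgeR 4.0.16), gene minimum and fold, or took the study's WT labels. Promoters and their build are from RefSeq.

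The software was scanpy 1.11.5, leidenalg 0.10.2, scikit-learn 1.9.0, matplotlib 3.10.9, pandas 2.3.3, numpy 2.4.6 and scipy 1.17.1 under Python 3.11.15, and R 4.3.3.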

Additional observations from a re-analysis of the deposited data

How the results depend on the processing

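No paired analysis was possible because each condition has 1 library. The ratios of the shares between libraries moved by less than their counting interval in 49 of 49 alternatives for each list. The S phase share ratio of HSPC-like cells ran from 0.820 to 0.982 and their S phase level ratio from 0.901 to 0.940. Of the levels of single members, 190 of 256 stayed within the interval and 66 moved outside it. The order of HSPC-like above EC-like cells held in each alternative run.

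Shares follow the UMI minimum and the depth. In the order HSPC-, EC-, BMSC- and chondrocyte-like, WT before Wls_iBmx, the mitosis shares were 84.2, 80.3, 45.4, 49.3, 29.7, 28.3, 27.7 and 28.8% with at least 1 UMI, 60.0, 62.9, 27.02, 27.6, 16.7 (BMSC-like WT), 16.6 and 16.7% (chondrocyte-like) with at least 3 UMIs, 56.5, 52.8, 24.2, 25.2, 16.2, 16.3, 15.9 and 16.3% at 500 UMIs, 85.4, 80.7, 43.8, 42.0, 26.9, 23.7, 24.8 and 25.5% at 2000 UMIs, and 90.5, 84.8, 44.0, 45.8, 29.0, 26.97, 26.2 and 26.0% without thinning. The S phase shares in that order were 88.1, 82.5, 44.4, 46.3, 41.8, 44.7, 38.5 and 39.5% with at least 1 UMI, 54.6, 50.7, 11.9, 16.01, 11.1, 10.6, 11.7 and 11.9% with at least 3 UMIs, 49.1, 40.3, 9.71, 12.7, 9.07, 9.38, 9.51 and 9.15% at 500 UMIs, 92.99, 91.3, 41.3, 43.3, 36.4, 37.97, 33.9 and 35.5% at 2000 UMIs, and 93.8, 91.3, 47.5, 53.1, 46.1, 51.1, 37.5 and 39.3% without thinning. For WT HSPC-like cells the study's labels gave 53.9% mitosis and 50.4% S phase, or 67.0% and 64.7% without the neutrophil progenitors, and resolution 0.4 gave 77.2 and 77.0%.

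The mitosis level ratio of HSPC-like cells was 0.981 at resolution 0.4, 0.982 at 1.2, 0.982 without the cartilage-led subcluster and 0.976 by the mean over cells. That of BMSC-like cells was 0.825 at resolution 1.2, 0.934 with 30 principal components, 1.012 by nearest centroid, 1.03 by the mean over cells, 0.944 with TMM and 0.895 with WT cluster weights. That of chondrocyte-like cells was 1.18 without high Scrublet scores, 1.16 at resolution 0.4, 1.17 with 30 components, 1.24 by nearest centroid, 1.04 by the mean over cells and 0.999, the opposite direction, with WT cluster weights. That of EC-like cells was 1.08 with the strict cell filter. The S phase level ratio of chondrocyte-like cells was 1.11 by nearest centroid and turned to 0.998 by the mean over cells and 0.909 with WT weights, and that of EC-like cells turned to 0.985 with the strict filter. Members past 1.5-fold in HSPC-like cells numbered 1 at resolution 0.4, with 30 components, by the mean over cells and with at least 10 UMIs. In BMSC-like cells they numbered 0 with the strict filter, without high Scrublet scores, at resolution 0.4, by nearest centroid, without haemoglobin and mitochondrial genes, with TMM and at 2-fold, and 4 at resolution 1.2. In EC-like cells they numbered 2 with the strict filter, 3 by the mean over cells, and 0 with at least 200 UMIs and at 2-fold. The cause of these moves was not tested. A gene with few UMIs, such as Kif20a or Gins2, gives no ratio that this depth can resolve.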

Other observations

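With the study's own labels for WT cells, joined by barcode, the progenitor groups held similar shares of mitosis-called cells at 67.6% (60.1 to 74.5) of 173 multipotent HSPCs, 65.7% of 137 myeloid progenitors and 67.8% of 87 megakaryocyte progenitors after thinning, with S-called shares of 60.7%, 63.5% and 74.7%. The group labelled neutrophil progenitors stood apart at 16.1% (10.3 to 23.3) mitosis-called and 8.76% S-called of 137 cells, and 129 of its 139 cells were osteoclast-like by the marker lists used here. So were 32 of the 173 multipotent HSPCs, 7 of 143 myeloid progenitors and 0 of 89 megakaryocyte progenitors. The part of these cells in the shares of their groups was not tested. Among the stromal groups, eBMSC-1 cells had few mitosis-called (5.16%) but more S-called cells (14.1%), eBMSC-2 cells 0.671% and 6.04%, OLCs-1 17% and 15.5%, and OLCs-2 6.19% and 8.25%. The study set its mitotic stromal cells apart as a group of their own, so the low mitosis shares of the eBMSC groups follow in part from that grouping.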
